A study of Arabidopsis thaliana with 4 samples.

Results

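IGN17 is 1 of 7 noncoding loci at which the 3′ ends of RNA polymerase V (Pol V) transcripts were read in Arabidopsis thaliana, and all lines that carry its name were taken. The genotypes rrp6L1-1 and rrp6L1-2, which are 2 independent mutants of the exonuclease gene RRP6L1, and nrpe1-11, a Pol V mutant, were set against Col-0 wild type, the ecotype of every mutant. Above-ground tissue of plants aged 2.5 weeks, grown in soil under 16 hours of light and 8 hours of dark, gave 1 library per genotype. The sources used here do not state how many plants stand behind each library or what lesion each allele carries. No value below therefore has a replicate error, and the difference between the rrp6L1 libraries is the only guide to how far libraries differ.

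Pol V is a plant polymerase whose noncoding transcripts stay at the chromatin they are made from and serve as scaffolds, to which small interfering RNAs guide the machinery of DNA methylation. IGN stands for intergenic noncoding, and these transcripts are rare RNAs without the poly(A) tail of a messenger RNA. NRPE1 is the largest subunit of Pol V. RRP6L1 is a plant relative of RRP6, the exosome-associated enzyme that removes nucleotides from the 3′ ends of nuclear RNAs. The question was where the transcripts end when this enzyme is mutated.

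In 3′ RACE as applied here, RNA was given a poly(A) tail in the tube, reverse transcribed with oligo(dT), and amplified in nested rounds of PCR with primers specific to the locus. The deposited length counts from position 13585662 of chromosome 1 in every IGN17 read, so that a length of 1 nt is an end at that base. Length grows with the coordinate, which puts the transcript on the plus strand, although the deposited strand of the reads is minus. The length is not the length of the RNA in the plant, because the locus primer decides where a product begins. The ends of the 3 libraries described below spanned 204 bp, positions 13585662 to 13585865, of which 71.6% are A or T. No gene annotated in TAIR10.1 overlaps this stretch. The nearest annotated features are pseudogenes, AT1G36200 (minus strand, positions 13577455 to 13580996), 4666 nt upstream, and AT1G36210 (plus strand, positions 13594514 to 13597863), 8649 nt downstream.

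The reference sequence from 1 to 110 nt (chr1:13585662-13585771, plus strand, TAIR10.1) is shown once for each library, 5′ to 3′, because the finding at IGN17 is a set of single bases. Capitals mark the bases at which at least 1% of that library's IGN17 ends lay.
rrp6L1-1: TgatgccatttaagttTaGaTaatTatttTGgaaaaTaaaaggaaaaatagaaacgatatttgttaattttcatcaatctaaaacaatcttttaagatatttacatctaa
rrp6L1-2: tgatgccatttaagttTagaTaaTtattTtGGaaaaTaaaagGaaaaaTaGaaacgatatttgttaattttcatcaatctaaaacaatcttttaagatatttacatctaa
Col-0: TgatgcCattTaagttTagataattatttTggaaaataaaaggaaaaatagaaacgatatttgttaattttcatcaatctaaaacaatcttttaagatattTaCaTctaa
The capitals of both rrp6L1 libraries stop in the first part of the sequence, at 37 nt in rrp6L1-1 and 51 nt in rrp6L1-2. Those of Col-0 lie on either side of a stretch without any, and the last group falls at 102, 104 and 106 nt. Col-0 had 1 more such base farther downstream, at 203 nt, in the stretch from 111 to 204 nt (chr1:13585772-13585865).
Col-0 downstream: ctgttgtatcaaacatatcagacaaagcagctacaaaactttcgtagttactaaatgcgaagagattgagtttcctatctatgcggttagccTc

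IGN17 products were abundant in the 3 genotypes with Pol V and nearly missing from nrpe1-11. IGN17 gave 9307 reads in rrp6L1-1, 18209 in rrp6L1-2, 2 in nrpe1-11 and 27611 in Col-0. These were 8.47% of the rrp6L1-1 library (exact 95% interval 8.31% to 8.64%), 20.4% of rrp6L1-2 (20.1% to 20.7%), 0.000803% of nrpe1-11 (9.73e-05% to 0.00290%) and 19.5% of Col-0 (19.3% to 19.7%). Among the 7 loci IGN17 ranked 7 in reads in rrp6L1-1, 1 in rrp6L1-2, 5 in nrpe1-11 and 2 in Col-0. The nrpe1-11 library was not short of reads, since 248938 of its reads came from other loci. The shares are of pooled PCR products, and fewer transcripts cannot be told apart from a smaller amount of product in the pool. With 2 reads, nrpe1-11 is given as a count and takes no part in the descriptions of length. Its reads ended at 21 and 31 nt. Both positions were in use elsewhere: 21 nt held 1.20% in rrp6L1-1, 1.10% in rrp6L1-2 and 0.101% in Col-0, and 31 nt held 66.8% in rrp6L1-1, 2.22% in rrp6L1-2 and 0.862% in Col-0.

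Each Col-0 read at IGN17 appears on 2 identical lines, 55222 lines for 27611 reads, while no IGN17 line was repeated in the other libraries. Each read was counted once. With repeats kept, IGN17 would make up 32.7% of the Col-0 lines, and no share within the locus would differ.

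**Figure D1:**
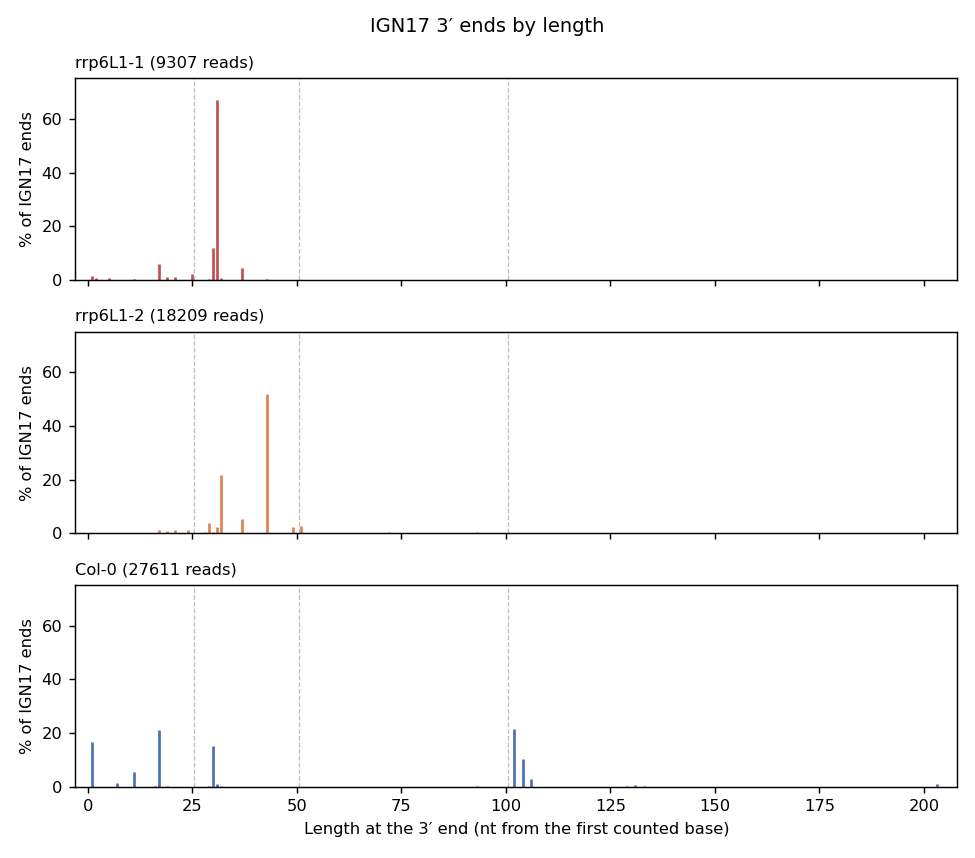
Share of IGN17 reads (%) ending at each length (nt) in rrp6L1-1, rrp6L1-2 and Col-0, 1 library each; dashed lines mark the class limits of 25, 50 and 100 nt. Most ends of both rrp6L1 libraries lie between 26 and 50 nt (85.2% and 90.2%), whereas Col-0 has a short group and a long group with 36.9% of its ends beyond 100 nt.

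Both rrp6L1 libraries had almost none of the long ends of Col-0 and had most of their ends in a middle class that was a minor one in Col-0. Ends beyond 100 nt made up 0.0215% of the IGN17 ends in rrp6L1-1 (2 reads, exact 95% interval 0.00260% to 0.0776%), 0.159% in rrp6L1-2 (29 reads, 0.107% to 0.229%) and 36.9% in Col-0 (10191 reads, 36.3% to 37.5%). Ends of 26 to 50 nt made up 85.2% in rrp6L1-1 (84.4% to 85.9%), 90.2% in rrp6L1-2 (89.7% to 90.6%) and 16.9% in Col-0 (16.4% to 17.3%). Ends of 1 to 25 nt made up 14.8% in rrp6L1-1 (14.0% to 15.5%), 5.23% in rrp6L1-2 (4.91% to 5.56%) and 45.6% in Col-0 (44.998% to 46.18%). For these 3 classes the gap between either rrp6L1 library and Col-0 was wider than the gap between the rrp6L1 libraries. With the top position of every library left out, this no longer held for 1 to 25 nt, with 44.4% in rrp6L1-1, 10.9% in rrp6L1-2 and 58.0% in Col-0. Without ends before a genomic A, the class of 26 to 50 nt held 96.6% in rrp6L1-1, 80.6% in rrp6L1-2 and 43.4% in Col-0. The class of 51 to 100 nt was small in all 3 libraries and did not follow this order, with 0.0537% in rrp6L1-1 (5 reads), 4.43% in rrp6L1-2 (806 reads) and 0.627% in Col-0 (173 reads). With all limits 5 nt farther downstream, this class took in the Col-0 peaks at 102 and 104 nt and held 0.0322% in rrp6L1-1, 1.85% in rrp6L1-2 and 32.4% in Col-0. The class before it then held 72.7% in rrp6L1-1, 87.9% in rrp6L1-2 and 1.32% in Col-0. That class leaves out the base at 30 nt, with 11.9% in rrp6L1-1 and 15.3% in Col-0. It keeps the base at 31 nt, with 66.8% in rrp6L1-1 and 0.862% in Col-0. Its lower limit thus falls between neighbouring peaks, and the wider gap to Col-0 rests on that limit.

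Lengths were spread far less widely in the rrp6L1 libraries, and the mean and the median differed from Col-0 in opposite directions. The middle portion of the reads, from the first to the third quartile, ran from 30 to 31 nt in rrp6L1-1, from 32 to 43 nt in rrp6L1-2 and from 17 to 102 nt in Col-0. Mean lengths were 28.95 nt in rrp6L1-1, 39.2 nt in rrp6L1-2 and 49.7 nt in Col-0, with standard deviations between reads of 6.68, 10.1 and 46.3 nt. Median lengths were 31 nt in rrp6L1-1 and 43 nt in rrp6L1-2, against 30 nt in Col-0, and each order-statistic interval was 0 nt wide because many reads shared the median base. The median of Col-0 fell on the last peak of its short group, with the long group beyond it, so the differences of 1 nt for rrp6L1-1 and 13 nt for rrp6L1-2 do not describe a displacement of a single peak. The median differences themselves moved with the reads counted: without each library's top position they were 13 nt for rrp6L1-1 and 15 nt for rrp6L1-2, and without ends before a genomic A they were 1 nt for rrp6L1-1 and -1 nt for rrp6L1-2. By the mean the signs were the opposite, -20.8 nt for rrp6L1-1 and -10.5 nt for rrp6L1-2. The rrp6L1 libraries differed from each other by 12 nt in the median and 10.3 nt in the mean (rrp6L1-2 minus rrp6L1-1).

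**Figure D2:**
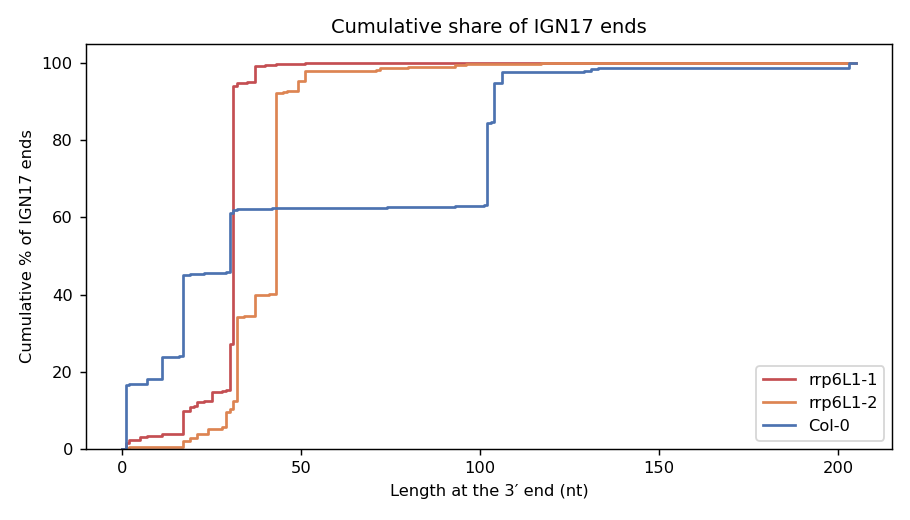
Cumulative share (%) of IGN17 ends by length (nt) in the 3 libraries. The rrp6L1-1 and rrp6L1-2 curves are complete before 100 nt except for 0.0215% and 0.159% of their ends, while the Col-0 curve is flat between its group at 30 nt and its step at 102 nt.

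At single bases, most main end positions of both rrp6L1 libraries differed from Col-0 at least 10-fold, some higher and some lower. A main end position is a base with at least 1% of the IGN17 ends in the rrp6L1 library or in Col-0. In rrp6L1-1, 10 of 14 such positions (71.4%) had a share at least 10-fold different from Col-0, 4 higher and 6 lower, where 37.3% of the main positions of all 7 loci did (19.3% higher and 18.0% lower). In rrp6L1-2 it was 17 of 18 (94.4%), 8 higher and 9 lower, where 41.1% of the main positions of all 7 loci did (20.5% higher and 20.5% lower). Both comparisons use the same Col-0 library and are not independent. In rrp6L1-1 the positions nearest the limit were 1 nt, 10.6-fold lower, and 7 nt, 9.28-fold lower, on the lower side, and 21 nt, 11.9-fold higher, and 19 nt, 8.98-fold higher, on the higher side. In rrp6L1-2 the nearest past the limit was 21 nt, 10.8-fold higher, and the 1 position outside was 31 nt, 2.57-fold higher.

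As counted, most long Col-0 ends sat on 3 bases 2 nt apart, at 102, 104 and 106 nt. The bases at 102 and 104 nt each precede 1 genomic A, which cannot be told apart from the added tail. True ends counted there may lie 1 nt farther on, so the spacing cannot be taken as that of the true ends. The base at 102 nt (position 13585763) held 1 read in rrp6L1-1, 0 in rrp6L1-2 and 5919 (21.4%) in Col-0, of which it was the most frequent end. The base at 104 nt (position 13585765) held 0 reads in rrp6L1-1, 0 in rrp6L1-2 and 2827 (10.2%) in Col-0. With a count of 0 set to the floor of 3 reads per library, this is at least 318-fold lower in rrp6L1-1 and at least 621-fold lower in rrp6L1-2. Together the stretch from 102 to 106 nt, chosen after its values were seen, held 2 reads in rrp6L1-1 (0.0215%), 0 in rrp6L1-2 (exact interval up to 0.0203%) and 9507 in Col-0 (34.4%). Few ends of any library lay just before it. From 52 to 101 nt there were 3 reads in rrp6L1-1 (0.0322%), 350 in rrp6L1-2 (1.92%) and 188 in Col-0 (0.681%), so the rrp6L1-2 share was the highest of the 3 there. From 107 to 202 nt there were 0 reads in rrp6L1-1, 16 in rrp6L1-2 (0.0879%) and 349 in Col-0 (1.26%), and at 203 nt there were 0 reads in rrp6L1-1, 0 in rrp6L1-2 and 309 (1.12%) in Col-0. None of the 309 reads of Col-0 at 203 nt carried the highest deposited mapping quality score, 44.

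The shortest ends were less frequent in the rrp6L1 libraries. Of these, 1 nt is the first counted base, and no library has an end upstream of it. What fixes that base is not known, because the primer positions are not in the sources used. At 1 nt lay 1.57% in rrp6L1-1 (exact 95% interval 1.33% to 1.84%), 0.0879% in rrp6L1-2 (0.0502% to 0.143%) and 16.6% in Col-0 (16.2% to 17.1%). At 11 nt (position 13585672) lay 0.473% in rrp6L1-1, 0.0659% in rrp6L1-2 and 5.59% in Col-0. Both positions were past 10-fold lower in each rrp6L1 library, and the rrp6L1-2 share was the lowest of the 3. Both calls end in rrp6L1-1 when only reads with the highest mapping quality score, 44, are counted: 1 nt then held 1.71% in rrp6L1-1 and 16.2% in Col-0, and 11 nt held 0.651% in rrp6L1-1 and 5.88% in Col-0, each less than 10-fold apart. The base at 17 nt (position 13585678) was the only one with at least 1% of the ends in all 3 libraries, with 5.96% in rrp6L1-1 (5.49% to 6.46%), 1.42% in rrp6L1-2 (1.25% to 1.599%) and 21.1% in Col-0 (20.6% to 21.6%). With score 44 only, the rrp6L1-2 share at 17 nt was 0.891%, and no base then reached 1% in all 3. Over all reads the share at 17 nt was 3.54-fold lower in rrp6L1-1, which did not pass the 10-fold limit, and 14.9-fold lower in rrp6L1-2.

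The 3 libraries each favoured a different base of the same short stretch. Around 30 nt the transcript (21 to 43 nt, chr1:13585682-13585704) reads as follows, with the bases at 29 to 32 nt in capitals.
ends 29 to 32: taattattTTGGaaaataaaagg
The second capital T, at 30 nt (position 13585691), held 11.9% in rrp6L1-1, 0.604% in rrp6L1-2 and 15.3% in Col-0. The first capital G, at 31 nt (position 13585692), held 66.8% in rrp6L1-1 (exact 95% interval 65.8% to 67.8%), 2.22% in rrp6L1-2 and 0.862% in Col-0, and was 77.5-fold higher in rrp6L1-1 than in Col-0. The second capital G, at 32 nt (position 13585693), held 0.870% in rrp6L1-1, 21.8% in rrp6L1-2 (21.2% to 22.4%) and 0.192% in Col-0, and was 114-fold higher in rrp6L1-2 than in Col-0. The most used of these bases was thus 1 nt farther downstream in rrp6L1-1, and 2 nt in rrp6L1-2, than in Col-0, as the ends were counted. The base at 32 nt precedes 4 genomic A bases, which cannot be told apart from the added tail. Its true ends may therefore lie up to 4 nt farther on. The first capital T, at 29 nt, held 0.408% in rrp6L1-1, 3.95% in rrp6L1-2 and 0.293% in Col-0. Summed over 29 to 32 nt, a stretch chosen after its values were seen, the shares were 80.0% in rrp6L1-1 (79.2% to 80.8%), 28.6% in rrp6L1-2 (27.9% to 29.3%) and 16.6% in Col-0 (16.16% to 17.04%). With these 4 bases treated as 1 position, the median of rrp6L1-1 differed from that of Col-0 by 0 nt and that of rrp6L1-2 by 13 nt.

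**Figure D3:**
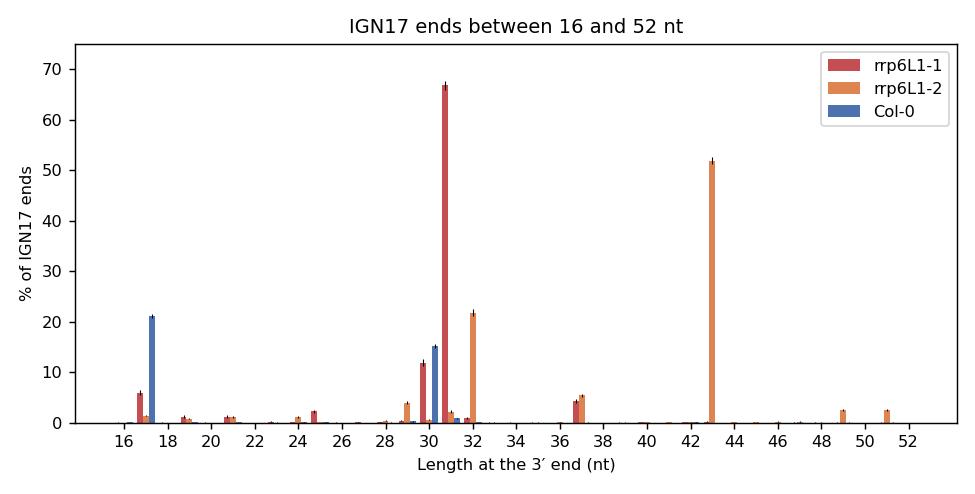
Share (%) of IGN17 ends at each length from 16 to 52 nt in rrp6L1-1, rrp6L1-2 and Col-0; error bars are exact 95% binomial intervals and cover counting error only. The peak near 30 nt lies at 31 nt in rrp6L1-1, 32 nt in rrp6L1-2 and 30 nt in Col-0, and the bar at 43 nt belongs to rrp6L1-2. The bases at 32 and 43 nt precede runs of genomic A, so the true ends there may lie farther downstream.

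Downstream of this stretch the rrp6L1 libraries parted. The base at 43 nt (position 13585704) held 0.215% in rrp6L1-1 (20 reads), 51.9% in rrp6L1-2 (9453 reads, exact 95% interval 51.2% to 52.6%) and 0.0254% in Col-0 (7 reads, 0.0102% to 0.0522%). It was the most frequent end of rrp6L1-2, 2048-fold above its share in Col-0, and rrp6L1-1 was much nearer to Col-0 than to rrp6L1-2 there. The same held at 51 nt, with 0.0215% in rrp6L1-1 (2 reads), 2.58% in rrp6L1-2 and 0.0362% in Col-0, and at 49 nt, chosen after its values were seen, with 0.0430% in rrp6L1-1 (4 reads), 2.47% in rrp6L1-2 and 0.0507% in Col-0. By contrast, 37 nt (position 13585698) was used in both mutants, with 4.30% in rrp6L1-1 (3.89% to 4.73%), 5.42% in rrp6L1-2 (5.10% to 5.76%) and 0.0326% in Col-0 (9 reads). These shares were 132-fold and 166-fold above Col-0. The reads behind them differed in quality: of the reads at 37 nt, 1.75% had the highest mapping quality score, 44, in rrp6L1-1 and 87.7% in rrp6L1-2. Counting only reads with that score left 0.142% of the ends at 37 nt in rrp6L1-1 (7 reads), 5.67% in rrp6L1-2 and 0.0132% in Col-0 (3 reads). Over all IGN17 reads, the score was 44 for 52.8% in rrp6L1-1, 83.8% in rrp6L1-2 and 82.5% in Col-0. The peak at 31 nt in rrp6L1-1 held 70.1% of the reads with that score.

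Smaller main ends lay at a few of the bases between 17 and 29 nt in the mutants. At 25 nt (position 13585686) lay 2.27% in rrp6L1-1, 0.126% in rrp6L1-2 and 0.0579% in Col-0. At its neighbour, 24 nt, lay 0.129% in rrp6L1-1, 1.15% in rrp6L1-2 and 0.0579% in Col-0. Here too the rrp6L1 libraries each had a base of their own, 1 nt apart, although in this pair the rrp6L1-1 base was the one farther downstream. At 21 and 19 nt, by contrast, the rrp6L1 libraries were near each other. At 21 nt lay 1.20% in rrp6L1-1, 1.10% in rrp6L1-2 and 0.101% in Col-0. At 19 nt lay 1.20% in rrp6L1-1, 0.840% in rrp6L1-2 and 0.134% in Col-0.

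Taken over the whole locus, 20 bases held at least 1% of the ends in at least 1 of the 3 libraries, 8 in rrp6L1-1, 10 in rrp6L1-2 and 9 in Col-0. The rrp6L1 libraries had 4 of these in common (17, 21, 31 and 37 nt). rrp6L1-1 and Col-0 had 3 in common (1, 17 and 30 nt), and rrp6L1-2 and Col-0 had 1 (17 nt). At 21, 31 and 37 nt both mutants, and not Col-0, reached 1%. Of these 3, only 31 nt remained so with score 44 only, since 21 nt then held 0.734% in rrp6L1-2 and 37 nt held 0.142% in rrp6L1-1. At 7, 11, 102, 104, 106 and 203 nt Col-0 alone did. Counting any base with a read, 26 of 118 bases were occupied in all 3 libraries.

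The rrp6L1 profiles were also narrower. The most frequent base alone took 66.8% of the rrp6L1-1 reads and 51.9% of the rrp6L1-2 reads, but 21.4% of the Col-0 reads. The effective number of end positions, the number of equally used bases that would give the same chance of 2 reads sharing a base, was 2.14 in rrp6L1-1, 3.09 in rrp6L1-2 and 6.40 in Col-0. At the depth of rrp6L1-1, 9307 reads, the number of distinct bases expected from each profile was 40 in rrp6L1-1, 64.3 in rrp6L1-2 and 70.9 in Col-0. The reads are PCR products without molecular identifiers, so equal read numbers need not mean equal numbers of starting RNAs. A genomic A after an end cannot be told apart from the added tail, so true ends may be spread over more bases than counted. A genomic A followed 17.7% of the ends in rrp6L1-1, 90.6% in rrp6L1-2 and 61.9% in Col-0. The top rrp6L1-2 base, at 43 nt, precedes 5 of them, so that profile may be less narrow than its values. Among the 7 loci IGN17 had the lowest effective number in both rrp6L1 libraries and ranked 2 from below in Col-0, after IGN5b with 5.46. IGN5b had 6.65 in rrp6L1-1 and 6.36 in rrp6L1-2, so the order of these loci was not the same in the mutants as in Col-0. A lower number in both mutants than in Col-0 was not particular to IGN17. IGN25 had 6.66 in rrp6L1-1, 8.86 in rrp6L1-2 and 11.3 in Col-0. IGN35 had 16.4 in rrp6L1-1, 13.5 in rrp6L1-2 and 19.5 in Col-0. At IGN5b, IGN29 and IGN5t both mutants were higher than Col-0, and at IGN23 only rrp6L1-1 was.

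The bases next to the ends differed between the libraries. In all 3, few ends lay on an A (0.548% in rrp6L1-1, 1.42% in rrp6L1-2 and 0.311% in Col-0), although 37.7% of the 204 reference bases are A. A genomic A that follows an end cannot be told apart from the added tail, so the true end may be as many bases farther on as there are genomic A bases after it. G was the end base of 70.7% of the rrp6L1-1 reads, 79.9% of the rrp6L1-2 reads and 2.11% of the Col-0 reads, and 85.3% of the Col-0 reads ended on T. These shares follow from the few bases named above, since 31, 32 and 43 nt are G and 1, 17, 30 and 102 nt are T. An end just before at least 3 genomic A bases was found for 5.42% of the reads in rrp6L1-1, 82.4% in rrp6L1-2 and 0.616% in Col-0. Of the 204 bases, 9 (4.41%) are not A themselves and stand before such a run. The read shares also include ends on an A within a longer run, which the 9 leave out. The shares and the 4.41% are therefore not counted alike. The rrp6L1-2 ends at 32, 37, 43 and 51 nt precede runs of 4, 4, 5 and 3 A bases. The main rrp6L1-1 end at 31 nt is followed by a G, and 8 of the next 10 bases are A there, as they are after 32, 37 and 43 nt. Among the 5 most frequent Col-0 ends it is 7 of 10 after 30 nt, 5 after 17 nt, 4 after 102 nt, 3 after 104 nt and 2 after 1 nt. The part that A-rich RNA next to the ends has in these differences, for example as a place where the oligo(dT) primer can anneal, was not tested.

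**Figure D4:**
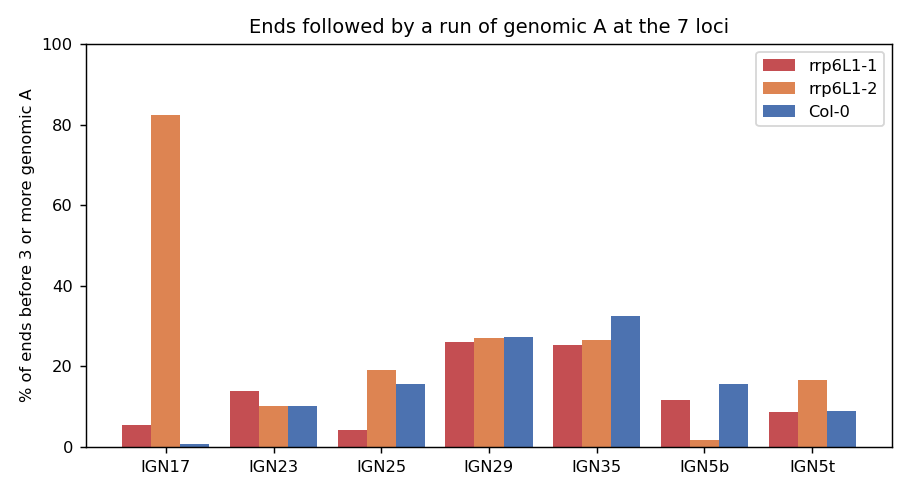
Share (%) of ends that lie just before at least 3 genomic A bases, in rrp6L1-1, rrp6L1-2 and Col-0 at the 7 loci. The rrp6L1-2 bar at IGN17 stands at 82.4%, against 5.42% in rrp6L1-1 and 0.616% in Col-0, and at the other loci the 3 libraries lie between 1.72% and 32.6%.

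The share differed between libraries by fewer percentage points at the other loci. IGN5t had its highest value in rrp6L1-2, as IGN17 did, with 8.54% in rrp6L1-1, 16.7% in rrp6L1-2 and 8.81% in Col-0. IGN25 had 4.12% in rrp6L1-1, 19.1% in rrp6L1-2 and 15.6% in Col-0. At IGN5b rrp6L1-2 was lowest, with 11.5% in rrp6L1-1, 1.72% in rrp6L1-2 and 15.7% in Col-0. The libraries lay closer together at the remaining loci. IGN23 had 13.8% in rrp6L1-1, 10.04% in rrp6L1-2 and 10.06% in Col-0. IGN29 had 26.05% in rrp6L1-1, 26.9% in rrp6L1-2 and 27.3% in Col-0, and IGN35 had 25.4% in rrp6L1-1, 26.5% in rrp6L1-2 and 32.6% in Col-0. With 1 library per genotype the difference between loci has no test.

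Whole profiles were compared by the share of ends in common, the smaller of the 2 shares at each base summed over the locus. At IGN17 this was 22.3% for rrp6L1-1 and Col-0, 4.78% for rrp6L1-2 and Col-0, and 13.2% for the rrp6L1 alleles. Base by base, the value for rrp6L1-2 and Col-0 and that for the alleles were the lowest of the 7 loci. For rrp6L1-1 and Col-0, IGN5b (16.2%) and IGN25 (19.5%) lay lower. The alleles had less in common with each other at IGN17 than rrp6L1-1 had with Col-0, as was also so at IGN25 (17.7% against 19.5%) and IGN5t (52.1% against 55.4%). The order changed when neighbouring bases were joined. Summed over windows of 5 nt, the alleles had 39.3% in common, rrp6L1-1 and Col-0 25.1%, and rrp6L1-2 and Col-0 9.97%. On that scale IGN17 was still the lowest of the 7 loci for rrp6L1-2 and Col-0 but not for the alleles, where IGN25 (23.3%) and IGN5b (39.28%) lay below 39.33%. The windows have fixed limits, and a limit falls between the Col-0 peak at 30 nt and the mutant peaks at 31 and 32 nt. Joining 29 to 32 nt instead was chosen after seeing the data. It gave 37.7% for the alleles, 25.6% for rrp6L1-1 and Col-0, and 19.4% for rrp6L1-2 and Col-0. No other pair at IGN17 had as much in common as the alleles in windows, so the order of the pairs depends on whether single bases or windows are compared. The largest gap between the cumulative shares, as a fraction, gave yet another order. It was 0.817 for the alleles, 0.375 for rrp6L1-1 and Col-0, and 0.510 for rrp6L1-2 and Col-0. By that measure the alleles were the pair farthest apart at IGN17, and farther apart than at any other of the 7 loci.

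**Figure D5:**
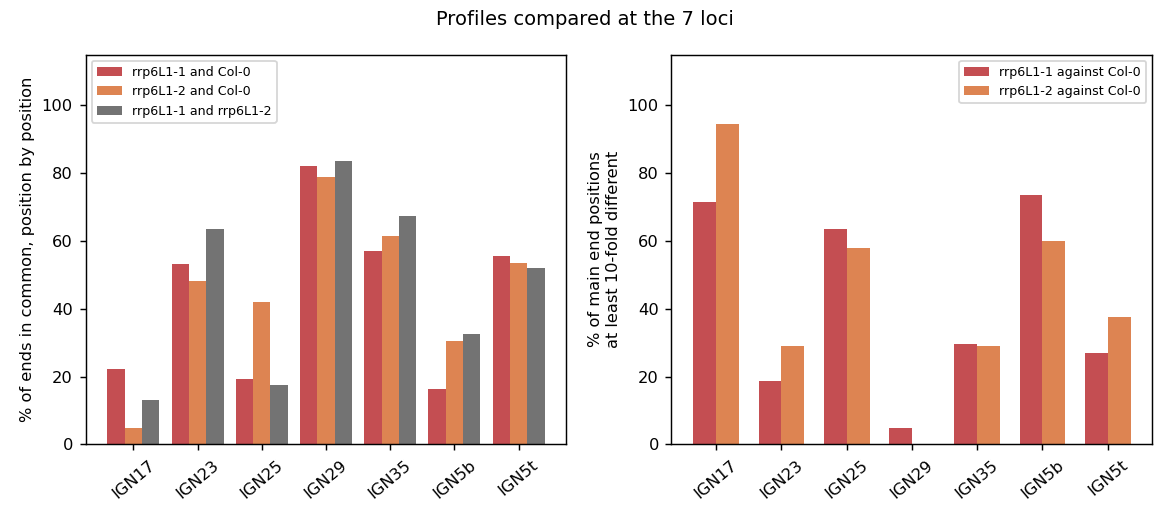
Left, share (%) of ends that coincide base by base, for the 3 pairs of libraries at the 7 loci; right, share (%) of main end positions at least 10-fold different from Col-0 in rrp6L1-1 and in rrp6L1-2. At IGN17 the 3 pairs lie at 22.3%, 4.78% and 13.2% (left), and 71.4% and 94.4% of the main positions pass 10-fold (right).

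By the count of main positions past 10-fold, the loci nearest to IGN17 were IGN5b and IGN25. At IGN5b 14 of 19 positions (73.7%) passed in rrp6L1-1 and 9 of 15 in rrp6L1-2, and at IGN25 14 of 22 (63.6%) and 11 of 19 (57.9%). At IGN29, the locus with the lowest counts, it was 1 of 21 positions in rrp6L1-1 and 0 of 20 in rrp6L1-2. IGN17 was therefore highest of the 7 loci in rrp6L1-2 and second to IGN5b in rrp6L1-1, as a description of these libraries.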

How the data were processed

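RNA from above-ground tissue was assayed by 3′ RACE, with 1 library per genotype. Per the labels' protocols, PCR products were pooled per genotype. Per the file headers, each line deposited by the authors holds 1 read with a locus name, a mapping quality score, a strand, a 3′ end position and a transcript length in nt, and these values are not normalised. Per the submitters' processing notes, the genome was TAIR10 and the tools were bedtools, Bowtie2, SAMtools, cutadapt 1.9.1 and bcl2fastq 2.16.0.10, with no roles or settings stated. Coordinates were taken as 1-based and matched to TAIR10.1, the NCBI copy of that genome.

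Lines named IGN17 were taken and exact repeat lines dropped, which removed 27611 lines from Col-0 and 0 from the other libraries. Library depth after this step was 109895 reads in rrp6L1-1, 89304 in rrp6L1-2, 248940 in nrpe1-11 and 141489 in Col-0. Shares carry exact (Clopper-Pearson) 95% intervals and medians carry order-statistic intervals (scipy 1.17.1). Reads have no molecular identifiers, so intervals and the floor of 3 reads cover counting error only. A main end position held at least 1% of a locus's ends in the rrp6L1 library or in Col-0. No test was possible with 1 library per genotype, and a 10-fold difference in share was the call. The position calls, ends in common, median difference and expected number of distinct bases were tried on simulated Col-0 ends. The tolerance for position calls was as wide as the number of changes planted, so missed calls could not fail it. No other step was tried in this way.

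The locus, length classes and thresholds were chosen with earlier results of these data known. Positions named are the 5 most frequent of each library, those with at least 5% in any library, and their neighbours with at least 1%; other positions named were chosen after their values were seen. The alternatives changed which reads entered, the measure of location, the class limits, the thresholds and the joining of neighbouring positions.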

Additional observations from a re-analysis of the deposited data

How the results depend on the processing

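No paired analysis was possible because each genotype has 1 library. The sign of the length difference depended on the measure. The mean gave -20.8 nt for rrp6L1-1 and -10.5 nt for rrp6L1-2; equal weight for every base with at least 2 reads gave -36 and -19.5 nt. Without each library's top position the differences were 13 and 15 nt, and without ends before a genomic A 1 and -1 nt. With ends of 29 to 32 nt joined, an alternative chosen after seeing the data, rrp6L1-1 differed by 0 nt.

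Ends beyond 100 nt stayed far below Col-0 in both rrp6L1 libraries under every alternative run. Their share was 0% in rrp6L1-1, 0.0590% in rrp6L1-2 and 37.2% in Col-0 with the highest mapping quality score only. In rrp6L1-2 it was 0.331% without the most frequent position, 0.994% without ends before a genomic A, and 0.0879% and 0.412% with class limits 5 nt downstream and upstream. In Col-0 it was 44.3% without ends at 1 nt, 19.7% without the most frequent position, 10.5% without ends before a genomic A and 5.11% with limits 5 nt downstream, since the peaks at 102 and 104 nt then fall below the limit.

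Positions past 10-fold numbered 4 of 5 in rrp6L1-1 and 9 of 10 in rrp6L1-2 without ends before a genomic A, which leaves fewer positions to count. Under the other alternatives they numbered within 1.5 times the counts of 10 and 17. The share over all 7 loci was taken in the main setting only. Whether IGN17 stays above that share under the alternatives was therefore not tested.

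The ends in common moved with most settings. For the alleles they were 6.19% with the highest score only, 26.3% without the most frequent position, 32.5% without ends before a genomic A, 39.3% in windows of 5 nt and 37.7% with 29 to 32 nt joined. For rrp6L1-1 and Col-0 the same settings gave 21.3%, 45.8%, 19.8%, 25.1% and 25.6%, and 21.4% without ends at 1 nt. For rrp6L1-2 and Col-0 they gave 2.76%, 7.94%, 12.2%, 9.97% and 19.4%, and 5.15% without ends at 1 nt. Lines counted as deposited, chosen after seeing the data for the share of the library, moved the Col-0 share to 32.7%. Where no cause is stated, the cause was not tested.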
